A study of Homo sapiens with 4 samples.

Results

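The E2F family and the retinoblastoma pocket proteins were examined as 10 genes of a table of 60880 genes, listed by name. Earlier results of these data were known when they were chosen. The genes were 3 activator E2Fs (E2F1, E2F2 and E2F3), 2 repressor E2Fs (E2F4 and E2F5), 2 atypical E2Fs (E2F7 and E2F8) and 3 pocket proteins (RB1, RBL1 and RBL2). Each symbol matched 1 Ensembl identifier, and all 10 genes had enough reads to be tested. RNA-Seq counts of untreated LNCaP95 cells, an androgen-independent subline of the LNCaP prostate cancer line, were compared with those of LN95(KO) cells, a derivative of LNCaP95 in which UGT2B17 was knocked out with CRISPR. LNCaP95 gave 2 libraries (replicates 1 and 2) and LN95(KO) gave 2 (replicates 3 and 4). Both lines were kept in RPMI1640 with charcoal-stripped serum, which is depleted of steroid hormones, so the controls shared the low-androgen medium. UGT2B17 encodes an enzyme that attaches glucuronic acid to androgens. How many knockout clones were used was not given. For the knockout the series text speaks of LNCaP, whereas LN95 stands as the cell line in the labels of all 4 libraries. Nothing states that the libraries of a line came from separate cultures, so p-values measure the spread between these libraries, which may be technical.

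E2F proteins bind DNA together with a DP partner and set the transcription of genes needed to enter and pass through S phase. Activator E2Fs turn these genes on and are held inactive by RB1 until cyclin-dependent kinases phosphorylate RB1. E2F4 and E2F5 work mainly with RBL1 (p107) and RBL2 (p130), and in resting cells E2F4 with RBL2 or RBL1 and the MuvB core forms the DREAM complex, which silences cell cycle genes. E2F7 and E2F8 lack the domains for DP and pocket protein binding and repress E2F targets late in S phase. Several members, among them E2F1, E2F2, E2F7, E2F8 and RBL1, are themselves known E2F targets. In prostate cancer, loss of RB1 is known from advanced, treatment-resistant disease.

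The libraries held between 17330338 and 18813193 reads on genes, at which depth 3 counts, the limit that a count of 0 allows, correspond to 0.159 to 0.173 CPM. CPM values were scaled by TMM factors throughout, and counting limits cover counting error only. UGT2B17 had 2788 and 2748 counts in LNCaP95 against 21 and 20 in LN95(KO), in the direction of the labels. All 10 prostate luminal markers were detected, with a summed level of 3732 to 3733 CPM in LNCaP95 and 4038 to 4219 in LN95(KO). Single luminal markers moved further than this sum, with log2 fold changes from -1.30 to 4.91, and 5 were called, 4 higher (KLK2, KLK3 and TMPRSS2 among them) and 1 lower (FOLH1). At any fold, 5 luminal markers were higher and 4 lower with an adjusted p under 0.05 (edgeR). Of all genes tested, 29.8% were higher and 30.1% lower by that measure. Of the markers of other cell types, CHGA (neuroendocrine), DCN (stromal), CD3E (T cell) and CD68 (macrophage) had 0 counts in all 4 libraries. CD68 shares 85.6% of its exon bases with other genes. Not all were this low, as the stromal markers summed to between 30.2 and 35.7 CPM. Of 5 immune and endothelial markers, 4 were analysed here. The summed level of basal markers was 0.163 and 0.218 CPM in LNCaP95 against 1.13 and 1.53 in LN95(KO), that of immune and endothelial markers 0.488 and 0.437 against 2.77 and 3.18, that of neuroendocrine markers 6.50 and 6.93 against 2.49 and 2.30, and that of stromal markers 31.2 and 30.2 against 35.7 and 32.6. Of the stromal markers, LUM had 24 and 19 counts in LNCaP95 but 0 and 0 in LN95(KO), while VWF (endothelial) had 8 and 8 but 49 and 58, and KRT14 (basal) 1 and 2 but 17 and 20. Log2 fold changes of the 3 tested stromal markers ran from -7.42 to 0.22, and 1 was called, lower. Those of the 2 tested neuroendocrine markers ran from -6.95 to -0.05, and 1 was called, lower. The part of all these markers in the results was not tested. Unaligned reads came to 3.85% and 3.96% of all entries for LNCaP95 but 8.05% and 7.71% for LN95(KO), and the part of this difference in the results was not tested.

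E2F1, E2F2, E2F7 and E2F8 rose in LN95(KO), by 6.20-fold, 12.0-fold, 11.8-fold and 9.59-fold, whereas E2F4, RB1 and RBL2 did not pass the test. RBL1 was 1.93-fold higher and E2F3 1.26-fold higher, both with an adjusted p under 0.05 but short of 2-fold, and E2F5 was the single member whose level was lower with an adjusted p under 0.05. A gene was called where the edgeR quasi-likelihood test gave an adjusted p under 0.05 and the fold exceeded 2. By that rule 4 of the 10 members were called, all higher, where 18.0% of the 15626 genes tested were called, 8.86% higher and 9.13% lower. DESeq2 called the same number of members. At any fold, 6 members had an adjusted p under 0.05 in the higher direction and 1 in the lower, where 59.8% of all genes tested had one, 29.8% higher and 30.1% lower. The CPM values of both LN95(KO) libraries lay above those of both LNCaP95 libraries in 7 of 10 members, where 39.8% of tested genes did so and 79.8% did not overlap in either direction. The median log2 fold change of the members was 0.64, that of all genes tested -0.0080, and the median of all genes moved only between -0.047 and 0.047 under the other scalings tried. In bulk RNA, a change in the share of cells that carry a transcript and a change in RNA per cell cannot be told apart.

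**Figure D1:**
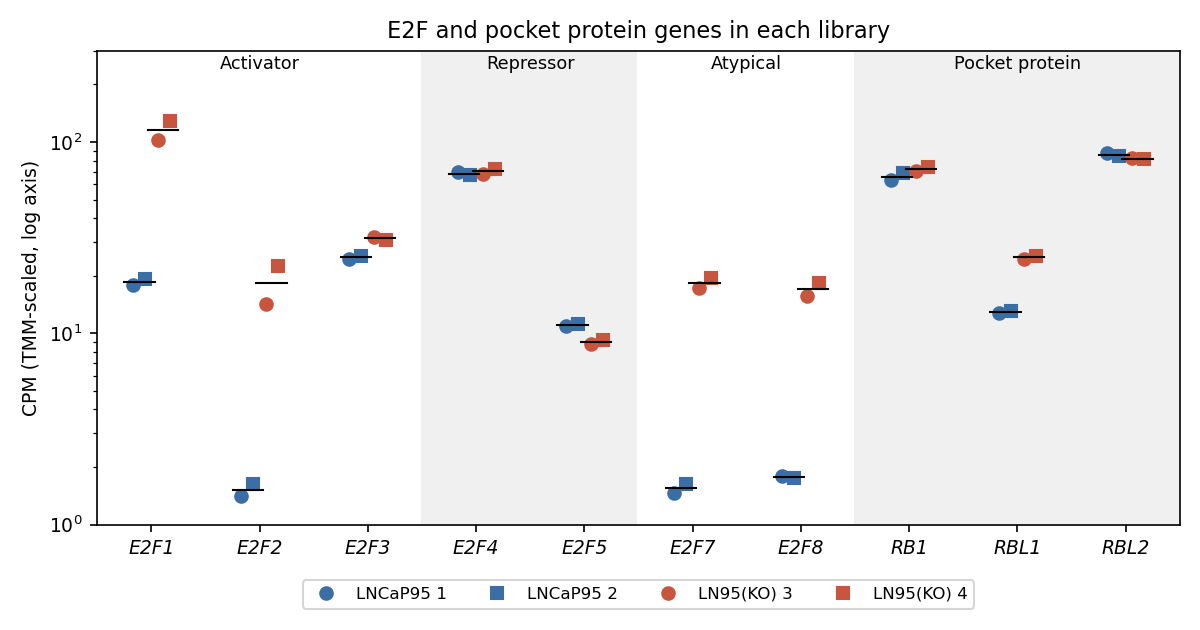
The plot of CPM by library shows each of the 10 genes with 1 point per library (circles and squares, LNCaP95 in blue, LN95(KO) in red) and a line at the mean of each group, on a log axis in TMM-scaled CPM. E2F1, E2F2, E2F7, E2F8 and RBL1 lie higher in both LN95(KO) libraries, while the points of E2F4, RB1 and RBL2 stay close together.

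The sequences just upstream of the start sites are given for 6 members, of which E2F4 alone did not pass the test. The windows of RBL2 and RB1 and a downstream window of E2F3 held no E2F motif and are not printed. They are the 100 bases before the RefSeq start site on GRCh38.p14, read 5′ to 3′ on the strand of the gene. Capitals mark each E2F motif, searched on both strands as TTTCCCGC, TTTCGCGC, TTTGCCGC and TTTGGCGC, so that GCGGCAAA and GCGGGAAA are matches on the opposite strand.
E2F1 (chr20:33686386-33686485, minus strand): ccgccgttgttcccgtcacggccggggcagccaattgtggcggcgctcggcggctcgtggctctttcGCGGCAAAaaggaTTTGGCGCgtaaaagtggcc
E2F2 (chr1:23531234-23531333, minus strand): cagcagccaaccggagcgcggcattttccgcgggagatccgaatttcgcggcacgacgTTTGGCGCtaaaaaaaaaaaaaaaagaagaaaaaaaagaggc
E2F3 (chr6:20401779-20401878, plus strand): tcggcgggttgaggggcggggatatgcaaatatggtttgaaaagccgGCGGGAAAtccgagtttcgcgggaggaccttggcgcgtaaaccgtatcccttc
RBL1 (chr20:37095998-37096097, minus strand): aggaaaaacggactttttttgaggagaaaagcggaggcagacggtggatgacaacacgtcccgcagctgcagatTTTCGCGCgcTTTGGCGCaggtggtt
E2F4 (chr16:67192055-67192154, plus strand): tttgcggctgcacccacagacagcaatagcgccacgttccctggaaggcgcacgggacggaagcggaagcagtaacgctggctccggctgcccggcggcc
E2F7 (chr12:77065570-77065669, minus strand): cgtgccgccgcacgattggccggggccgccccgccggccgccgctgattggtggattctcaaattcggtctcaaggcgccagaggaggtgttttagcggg

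The windows searched ran from 250 bases before to 50 bases after a start site, and 8 of the 10 members, all but E2F5 and E2F8, had 1 or more such windows. At least 1 match was found in the windows of E2F1, E2F2, E2F3 and RBL1, 4 of the 8. Among all 35116 promoter windows given by RefSeq, 3.31% held a match, as did those of 6.48% of the 11041 tested genes with a window. E2F1 held 2 matches, at -33 to -26 and -20 to -13 counted from the start site, and RBL1 held 2, at -26 to -19 and -16 to -9. In E2F2 the match lay at -42 to -35 and in E2F3 at -53 to -46. E2F3 has a further window 1735 bases downstream of its first, which held none. No match was present in the windows of E2F4, E2F7 and RBL2, which says only that these letters are not there. The RB1 window of the table begins 172699 bases inside the gene and was not read as its main promoter. A match is a description of letters and not evidence of a bound site.

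E2F1, the best studied activator and also a known inducer of apoptosis, was the member with the most reads among those that rose. E2F1 (ENSG00000101412.12_2) lies on chromosome 20, minus strand, at 32263283 to 32274191 of GRCh37, and its exon bases are shared with no other annotated gene. It had 331 and 354 counts in LNCaP95 against 1819 and 2341 in LN95(KO). These correspond to 17.9 and 19.3 CPM against 102.8 and 128.3 CPM, so that the lower LN95(KO) library was still far above both LNCaP95 libraries. Mean levels were 18.6 ± 0.986 CPM in LNCaP95 and 115.5 ± 18.0 CPM in LN95(KO) (SD, 2 libraries each). Its log2 fold change was 2.63 (SE 0.11, 95% interval 2.40 to 2.86, adjusted p 7.46e-10, edgeR), and it stayed between 2.47 and 2.79 under all alternatives tried. By size of rise E2F1 ranked 365 among the 15626 genes.

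E2F2, an activator that acts beside E2F1 in S phase entry, had few reads in LNCaP95 and the largest fitted rise of the 10 genes, though without LN95(KO) replicate 4 that of E2F7 was larger. E2F2 (ENSG00000007968.6_2; chromosome 1, minus strand, 23832930 to 23857725) had 26 and 30 counts in LNCaP95 against 253 and 409 in LN95(KO). Its level was 1.41 and 1.64 CPM against 14.3 and 22.4 CPM. The LN95(KO) libraries were thus well separated from LNCaP95 but also from each other, replicate 4 being the higher. This is a log2 fold change of 3.59 (SE 0.26, 95% interval 3.01 to 4.16, adjusted p 3.92e-07, edgeR), the widest interval of the members. It was 3.88 without LN95(KO) replicate 3 and 3.23 without replicate 4.

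E2F3, the activator known to drive proliferation in several epithelial tumors, differed from the other activators in the size of its change. E2F3 (ENSG00000112242.14_4; chromosome 6, plus strand, 20402110 to 20493945) had 454 and 466 counts against 567 and 563, or 24.6 and 25.4 CPM against 32.0 and 30.9. The groups did not overlap, but they lay close together. The log2 fold change was 0.33 (SE 0.08, 95% interval 0.16 to 0.49, adjusted p 0.00154, edgeR). Counts per gene do not separate the E2F3 transcripts that start at different promoters, so the value is their sum.

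Among the repressors, E2F4, the main E2F of quiescent cells, was at nearly the same level in both lines. E2F4 (ENSG00000205250.8_3; chromosome 16, plus strand, 67226058 to 67232821) had 1284 and 1232 counts in LNCaP95 against 1205 and 1320 in LN95(KO). Its level of 69.6 and 67.3 CPM overlapped the 68.1 and 72.3 CPM of LN95(KO). The log2 fold change was 0.04 with a 95% interval of -0.09 to 0.16 (adjusted p 0.611, edgeR), and its sign turned under upper quartile scaling and without LN95(KO) replicate 4.

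E2F5, which also partners with RBL2, was slightly lower in LN95(KO). E2F5 (ENSG00000133740.10_2; chromosome 8, plus strand, 86089389 to 86129387) had 201 and 205 counts against 156 and 168, or 10.9 and 11.2 CPM against 8.81 and 9.21. Both LN95(KO) libraries lay below both LNCaP95 libraries. On the log2 scale the difference was -0.29 (SE 0.12, 95% interval -0.55 to -0.04, adjusted p 0.0450, edgeR), and this p lay between 0.0249 and 0.316 across the alternatives other than glmTreat, which tests against a 2-fold change and gave 1. With any 1 library left out it was 0.0796 to 0.189, above the threshold. Annotation on the same build shares 18.8% of its exon bases with other genes, among them RBIS, and strand was not used in counting.

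The atypical E2Fs, which repress E2F targets without pocket proteins, rose together. E2F7 (ENSG00000165891.15_4; chromosome 12, minus strand, 77415028 to 77459349) had 27 and 30 counts in LNCaP95 against 307 and 353 in LN95(KO), or 1.46 and 1.64 CPM against 17.3 and 19.3. E2F8 (ENSG00000129173.12_2; chromosome 11, minus strand, 19245610 to 19263167) had 33 and 32 counts against 277 and 335, or 1.79 and 1.75 CPM against 15.7 and 18.4. In both genes the LNCaP95 libraries held few reads, though well above the limit of 3 counts, and the LN95(KO) libraries lay close to each other. For E2F7 the log2 fold change was 3.56 (SE 0.16, 95% interval 3.22 to 3.90, adjusted p 3.79e-12, edgeR). For E2F8 it was 3.26 (SE 0.16, 95% interval 2.92 to 3.61, adjusted p 1.53e-11, edgeR). The intervals of E2F7, E2F8 and E2F2 overlap, and their order was not tested. By size of rise E2F2, E2F7 and E2F8 ranked 147, 152 and 206 among all genes tested.

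Of the pocket proteins, RBL1 (p107), which accumulates in cycling cells, was higher in LN95(KO), while RB1 and RBL2 stayed near their LNCaP95 level. RBL1 (ENSG00000080839.11_3; chromosome 20, minus strand, 35624752 to 35724400) had 237 and 239 counts in LNCaP95 against 434 and 464 in LN95(KO), or 12.8 and 13.0 CPM against 24.5 and 25.4. The replicates of each line were nearly equal and the groups were far apart. On the log2 scale the difference was 0.95 (SE 0.09, 95% interval 0.75 to 1.14, adjusted p 1.20e-07, edgeR). The gene therefore lay just under the fold criterion, and with library totals in place of TMM factors its log2 fold change of 1.003 put it just over. By size of rise it ranked 1512 among all genes tested.

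RB1 (ENSG00000139687.15_4; chromosome 13, plus strand, 48877880 to 49173572), the retinoblastoma tumor suppressor, had 1168 and 1259 counts against 1246 and 1349. Its 63.3 and 68.7 CPM in LNCaP95 lay just below the 70.4 and 73.9 CPM of LN95(KO). The log2 fold change was 0.13 with a 95% interval of -0.0026 to 0.26 (adjusted p 0.0847, edgeR), and across the alternatives other than glmTreat, which gave 1, this p lay between 0.0161 and 0.533. RBL2 (ENSG00000103479.15_3; chromosome 16, plus strand, 53467889 to 53525560), the pocket protein of resting cells, had 1608 and 1556 counts against 1461 and 1485, or 87.1 and 85.0 CPM against 82.5 and 81.4. The LN95(KO) libraries were the lower ones by a small margin. The log2 fold change was -0.07 with a 95% interval of -0.19 to 0.05 (adjusted p 0.285, edgeR), and 16.4% of its exon bases are shared with other genes, among them AKTIP.

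**Figure D2:**
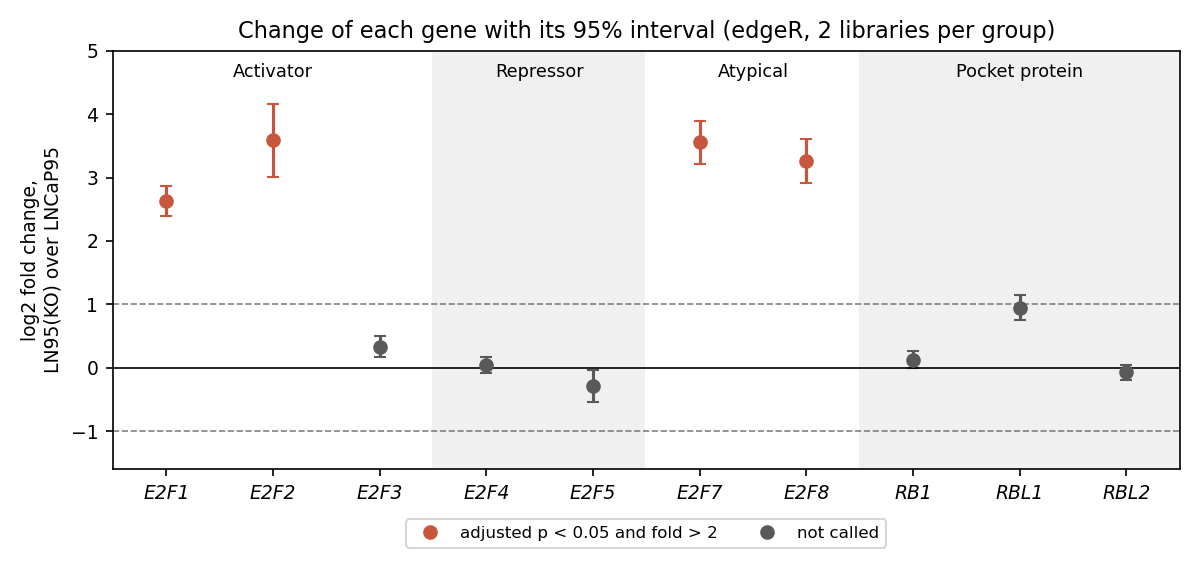
The plot of changes shows the log2 fold change of LN95(KO) over LNCaP95 for each gene (points) with its 95% interval from edgeR (bars), called genes in red, and dashed lines at a 2-fold change in either direction. E2F1, E2F2, E2F7 and E2F8 lie between 2.63 and 3.59, RBL1 lies at 0.95, and the other 5 lie between -0.29 and 0.33.

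The classes were then compared within each library, as differences of their mean log2 CPM, to ask whether activator, repressor and atypical E2Fs changed unequally. Activators minus repressors came to -1.66 and -1.53 in LNCaP95 against 0.56 and 0.78 in LN95(KO), a shift of 2.26. Atypical E2Fs minus repressors came to -4.00 and -3.94 against -0.57 and -0.45, a shift of 3.46. By these means, which take no account of gene length, the repressors stood above both other classes in LNCaP95. Of the repressors, E2F5 alone lay below E2F1 and E2F3 there. In LN95(KO) the activator mean lay above that of the repressors, and the atypical mean lay 0.57 and 0.45 below it. Activators minus atypical E2Fs went from 2.35 and 2.40 to 1.13 and 1.24, a shift of -1.19, with E2F3 counted among the activators. RBL1 minus RBL2 went from -2.75 and -2.69 to -1.75 and -1.67, a shift of 1.01. In each of these 4 differences the libraries of the groups did not overlap, and the shift was larger than the spread within a group. With 2 libraries against 2 the two-sided exact permutation p was 0.333, the smallest this design allows, so none could pass 0.05.

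Levels were compared between genes as CPM per kilobase of exon, taking all annotated exon bases of a gene as its length. In LNCaP95, E2F4 was the most abundant of the 10 genes on this scale, at 19.0 CPM per kilobase, followed by RBL2 at 10.6 and RB1 at 10.3, whose libraries overlapped. E2F1 at 6.93, E2F3 at 4.82, RBL1 at 2.17 and E2F5 at 1.84 came next, each above the following gene in both libraries. E2F8 at 0.428, E2F2 at 0.279 and E2F7 at 0.246 were lowest, and the libraries of E2F2 and E2F7 overlapped. A single repressor E2F thus led the order and the atypical E2Fs were near its end.

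In LN95(KO) the order was led by E2F1, at 42.9 CPM per kilobase, with E2F4 second at 19.5. RB1 at 11.2, RBL2 at 10.1 and E2F3 at 6.06 followed, each separated from its neighbours in both libraries. RBL1 at 4.19, E2F8 at 4.11, E2F2 at 3.36 and E2F7 at 2.92 formed a group in which each gene overlapped the next. E2F5 was last, at 1.50. E2F1 had therefore moved from place 4 to place 1 of the 10 genes and E2F5 from place 7 to place 10, while the levels of E2F4, RB1 and RBL2 differed little.

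The same scale gave the make-up of E2F transcripts in each library, which does not depend on scaling between libraries. Activators made up 34.8% and 36.8% of the summed level of the 7 E2Fs in LNCaP95 against 63.6% and 66.4% in LN95(KO). Repressors made up 63.2% and 61.2% against 27.6% and 24.9%. Atypical E2Fs made up 1.99% and 2.03% against 8.85% and 8.65%. The repressor share was thus the largest in both LNCaP95 libraries and the activator share in both LN95(KO) libraries, at an exact permutation p of 0.333, again the smallest possible.

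Within the classes, E2F1 alone went from 19.9% and 21.4% of the E2F level to 51.7% and 54.9%. E2F4 went from 57.8% and 55.6% to 25.6% and 23.1%, although its own level per kilobase was 19.3 and 18.7 in LNCaP95 against 18.9 and 20.1 in LN95(KO). E2F3 went from 14.2% and 14.6% to 8.35% and 6.84%. The shares of E2F4 and E2F3 were thus lower where the summed level was higher, while the level of E2F3 itself was higher and that of E2F4 overlapped between the lines. The summed level of the 7 E2Fs was 33.5 and 33.6 CPM per kilobase in LNCaP95 against 73.9 and 86.9 in LN95(KO).

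**Figure D3:**
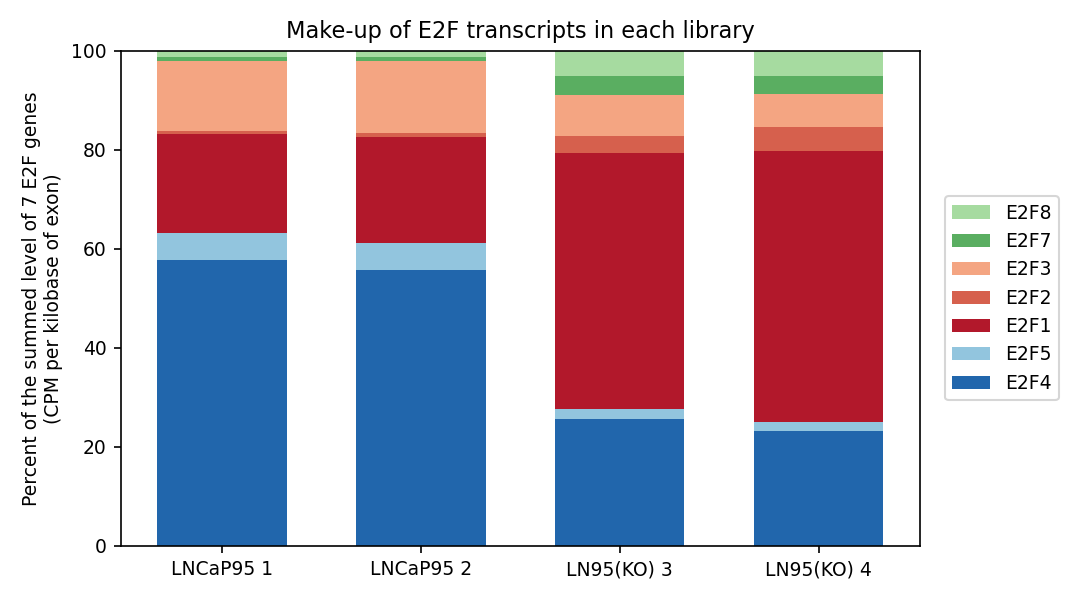
The stacked bars show the percent of the summed level of the 7 E2F genes, in CPM per kilobase of exon, taken by each gene in each of the 4 libraries, with repressors in blue, activators in red tones and atypical E2Fs in green. E2F4 is the largest block in both LNCaP95 libraries and E2F1 the largest in both LN95(KO) libraries.

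Pocket protein transcripts were set beside E2F transcripts on the same scale. The summed level of RB1, RBL1 and RBL2 was 22.7 and 23.4 CPM per kilobase in LNCaP95 against 25.2 and 25.8 in LN95(KO). The ratio of summed E2F to summed pocket protein level was 1.47 and 1.44 against 2.93 and 3.37. The ratio of activator E2Fs to pocket proteins was 0.513 and 0.531 against 1.86 and 2.24. Both ratios were higher in each LN95(KO) library than in either LNCaP95 library. Within the pocket proteins, the share of RBL1 went from 9.48% and 9.38% to 16.3% and 16.6%, and that of RBL2 from 47.3% and 44.9% to 40.3% and 38.9%, while that of RB1 was 43.3% and 45.8% against 43.4% and 44.5%, so that only the RB1 shares overlapped. These are transcript levels and say nothing of the phosphorylation that sets pocket protein activity.

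The DP partners, which E2F1 to E2F6 need to bind DNA, and E2F6, a repressor that works without pocket proteins, were tested beside the members, and 0 of the 3 tested were called. In these 3 genes 2 had an adjusted p under 0.05 (edgeR) at any fold, where 59.8% of all tested genes had one. DESeq2 also called 0, and edgeR called 18.0% of all tested genes. TFDP2 had 912 and 935 counts in LNCaP95 against 1258 and 1290 in LN95(KO), which gave a difference of 0.50 on the log2 scale (adjusted p 1.83e-06, edgeR). TFDP1 had 1318 and 1341 against 1328 and 1591, a log2 fold change of 0.17 whose adjusted p of 0.0430 (edgeR) lay between 0.00175 and 0.426 across the alternatives other than glmTreat, which gave 1. E2F6 had 263 and 256 against 229 and 266, a log2 fold change of -0.04 (adjusted p 0.787, edgeR) with overlapping groups. TFDP3 had 0 counts in every library.

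Around RB1, the kinases and cyclins that phosphorylate the pocket proteins held 3 called genes among 10 tested, against 18.0% of all tested genes, with a median log2 fold change of 0.18. Cyclin A2 (CCNA2), the S phase partner of CDK2, rose by 3.54 on the log2 scale, from 88 and 75 counts to 836 and 1016. CDK2 itself rose by 1.59, from 283 and 280 counts to 730 and 932. Cyclin D2 (CCND2), a partner of CDK4 and CDK6, fell by 1.12 on the log2 scale, from 1042 and 1014 counts to 445 and 480. CDK3 had 1 to 8 counts and was not tested. These 3 genes share part of their exon bases with other genes, 9.24% in CCNA2, 16.8% in CDK2 and 13.8% in CCND2.

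Of the 7 CDK inhibitors, which keep the pocket proteins active, 2 were called, both higher, against 8.86% of all tested genes called higher. CDKN2C (p18) rose by 2.37, from 104 and 104 counts to 484 and 572, and CDKN2A, the locus of p16 and ARF, rose by 1.30, from 51 and 41 counts to 114 and 108. Both were higher in each LN95(KO) library, and the median of the list was 0.52. Under a test against the 2-fold change itself (glmTreat of edgeR), the call of CDKN2A was lost (adjusted p 0.146), as was that of CCND2 (0.126).

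Of the 5 subunits of the MuvB core, with which RBL1, RBL2 and E2F4 form DREAM, 1 was called, LIN9, a share near the 18.0% of all tested genes. It rose by 1.40 on the log2 scale (adjusted p 9.73e-06, edgeR), from 126 and 144 counts to 281 and 419, and the LN95(KO) libraries were far from each other. The median of the core was 0.29. Of the 18 corepressors that pocket proteins recruit to chromatin, 1 was called, against 18.0% of all tested genes, the histone H3 lysine methyltransferase SUV39H1, which rose by 1.50 from 129 and 159 counts to 368 and 431, with 21.2% of its exon bases shared. RBBP7, a histone-binding subunit, was higher by 0.59, while KDM5A, first found as an RB-binding protein, and KMT5B, a histone H4 methyltransferase, were lower at -0.28 and -0.24. The adjusted p of KDM5A was 0.00655 by edgeR but 0.0842 by DESeq2, and that of KMT5B 0.00615 but 0.0583. The corepressor median was 0.18, and 10 of them had an adjusted p under 0.05 in the higher and 2 in the lower direction, where 29.8% and 30.1% of all tested genes did.

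All 9 genes for the degradation of E2F proteins and for the RB phosphatase were higher with an adjusted p under 0.05, where 29.8% of tested genes were. Of them 3 were called, against 8.86% of all tested genes called higher. CDC20, an activator of the anaphase-promoting complex, rose by 2.75 from 423 and 366 counts to 2316 and 2875. CKS1B, the cofactor of SKP2, rose by 1.80 from 462 and 428 counts to 1336 and 1692. CCNF (cyclin F), which targets activator E2Fs for destruction and was named after its value was seen, rose by 1.73 from 209 and 229 counts to 638 and 782. The median of the list was 0.34. Of the 10 E2F coactivators, 1 was called, against 18.0% of all tested genes, the bromodomain protein ATAD2, which rose by 2.39 from 221 and 242 counts to 1066 and 1307. TOPBP1, which binds E2F1, was higher by 0.74, and EAPP and the acetyltransferase KAT5 were lower at -0.40 and -0.36, KAT5 sharing 38.6% of its exon bases. The adjusted p of KAT5 was 0.0247 by edgeR but 0.234 by DESeq2. The median of the coactivators was 0.13.

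The targets of the family were taken as 3 lists, for G1/S genes, late cell cycle genes and apoptotic genes. Of 58 G1/S targets, which serve DNA replication and nucleotide supply, 57 were tested and 39 were called, all higher, against 8.86% of all tested genes. Their median log2 fold change was 1.30. MYBL2 (B-MYB), which replaces the pocket proteins on MuvB, rose by 3.74, from 396 and 387 counts to 4502 and 5764. RRM2, a subunit of ribonucleotide reductase, rose by 3.72, from 104 and 96 counts to 1116 and 1470. The single G1/S target that was lower with an adjusted p under 0.05 was MSH6, a mismatch repair gene, at -0.94 from 806 and 839 counts to 435 and 401, with 24.2% of its exon bases shared.

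All 26 late cell cycle genes known as DREAM targets were called higher, against 8.86% of all tested genes. Their median log2 fold change was 2.91, and DESeq2 called 25 of them. AURKB, the kinase of the chromosomal passenger complex, rose by 4.05 from 56 and 73 counts to 933 and 1155. CCNA2, given above, was the other gene that the naming rule picked from this list together with AURKB. CCNA2, CCNE1, CCNE2 and CDC20 each stand in 2 of the lists. The lists were written with earlier results of these data known, so their counts are no independent evidence of a direction.

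Of the 10 apoptotic genes known as E2F1 targets, 1 was called and it was lower, against 9.13% of all tested genes called lower. HRK, a BH3-only protein, fell by 1.91 on the log2 scale, from 206 and 187 counts to 52 and 50. CASP9 was lower at -0.75, while BCL2L11 (BIM) was higher at 0.50. The list held 3 genes in each direction with an adjusted p under 0.05, where 29.8% of all tested genes were higher and 30.1% lower. Its median of 0.06 was close to the -0.0080 of all genes tested. The members of the list thus lay on both sides of 0, from -1.91 to 0.59.

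**Figure D4:**
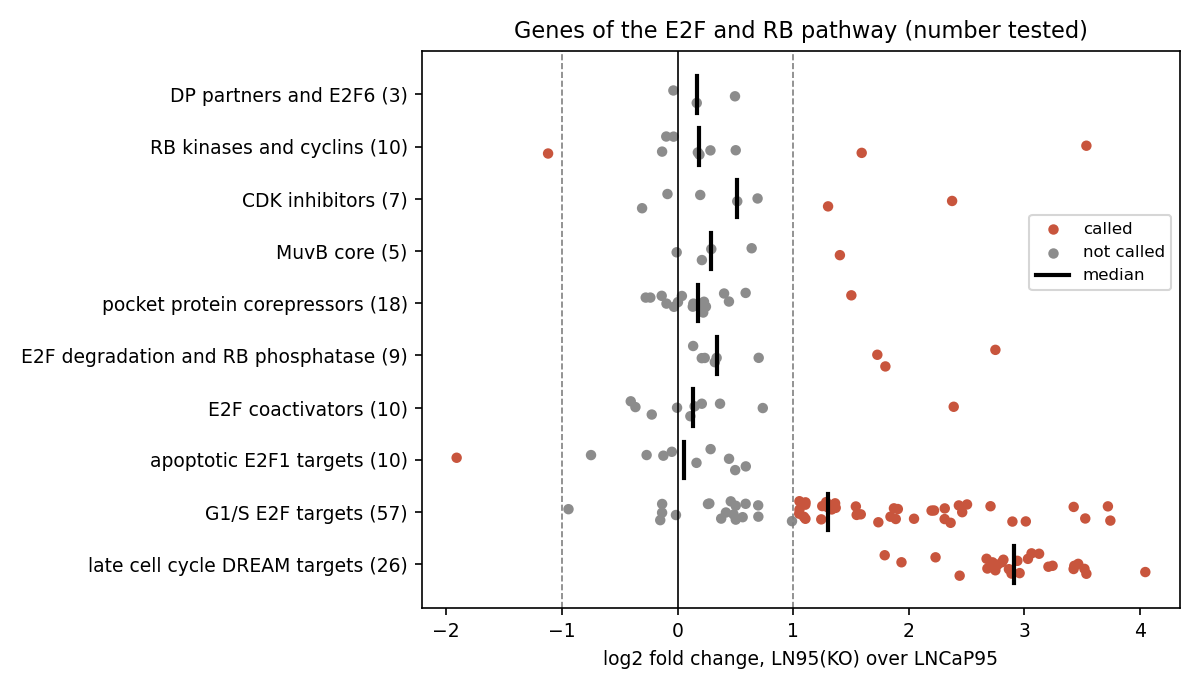
The plot of pathway lists shows the log2 fold change of LN95(KO) over LNCaP95 for every tested gene of 10 lists, 1 point per gene with called genes in red, a black bar at the median of each list, and dashed lines at a 2-fold change. The medians of the G1/S and late cell cycle targets are 1.30 and 2.91, and those of the other 8 lists lie between 0.06 and 0.52.

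Promoter letters were also counted in these lists, with 1 or more windows per gene. The E2F motif was present in 27 of 48 G1/S targets (56.2%) and in 3 of 21 late cell cycle targets (14.3%), against 6.48% of all tested genes. Among genes called higher 85 of 933 held it (9.11%) and among genes called lower 39 of 921 (4.23%). The CHR element, searched as TTTGAA on both strands, was present in 15 of 21 late targets (71.4%) and 4 of 48 G1/S targets (8.33%), against 13.3% of all tested genes. Of the members, E2F3 and RBL2 held TTTGAA, and E2F1, E2F3, E2F7 and RBL2 held CCAAT on either strand, which 42.9% of tested genes did. E2F1 held CCAAT 3 times and E2F7 4 times. E2F1, E2F2 and E2F7, the called members that have a window, thus did not share 1 set of these letters. E2F3 and RBL1, higher but short of 2-fold, held the E2F motif, as did E2F1 and E2F2 but not E2F7.

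The genes whose pattern over the 4 libraries was most like that of E2F1, E2F4 and RBL1 were searched among 151 tested genes of the lists, by Euclidean distance between log2 CPM values centred on their mean. Nearest to E2F1 were KIF11 at a distance of 0.068, TK1 at 0.103 and NUSAP1 at 0.185, of which NUSAP1 shares 86.8% of its exon bases with other genes. Nearest to E2F4 were RBBP4 at 0.068, CBX1 at 0.072 and HDAC2 at 0.096. Among those near RBL1 were RFC5 at 0.127 and DUT at 0.202. With 4 libraries in 2 groups, such a distance reflects mainly the size of the change and the gap between replicates.

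The LN95(KO) libraries differed from each other in the members that rose. In replicate 4 over replicate 3 the log2 ratio of CPM was 0.32 for E2F1, 0.65 for E2F2, 0.16 for E2F7 and 0.23 for E2F8. It was above 0 in 8 of the 10 members, in 55 of 57 G1/S targets with a median of 0.27, and in 26 of 26 late targets with a median of 0.26. Over all tested genes with reads in both libraries it was above 0 in 50.9%, with a median of 0.0034. Of the 10 luminal markers 1 had a ratio above 0. Between the LNCaP95 libraries, replicate 2 over replicate 1 was above 0 in 20 of 57 G1/S targets, 6 of 26 late targets and 7 of the 10 members. The G1/S and late targets of LN95(KO) thus differed mostly in 1 direction between its replicates. The members that rose went the same way. Of these, E2F1, E2F2 and E2F7 were also above 0 between the LNCaP95 replicates, at 0.11, 0.22 and 0.16, while E2F8 was at -0.03. Without replicate 3 or without replicate 4 the log2 fold change of E2F1 was 2.79 or 2.47, so the gap between the replicates was small beside the change.

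**Figure D5:**
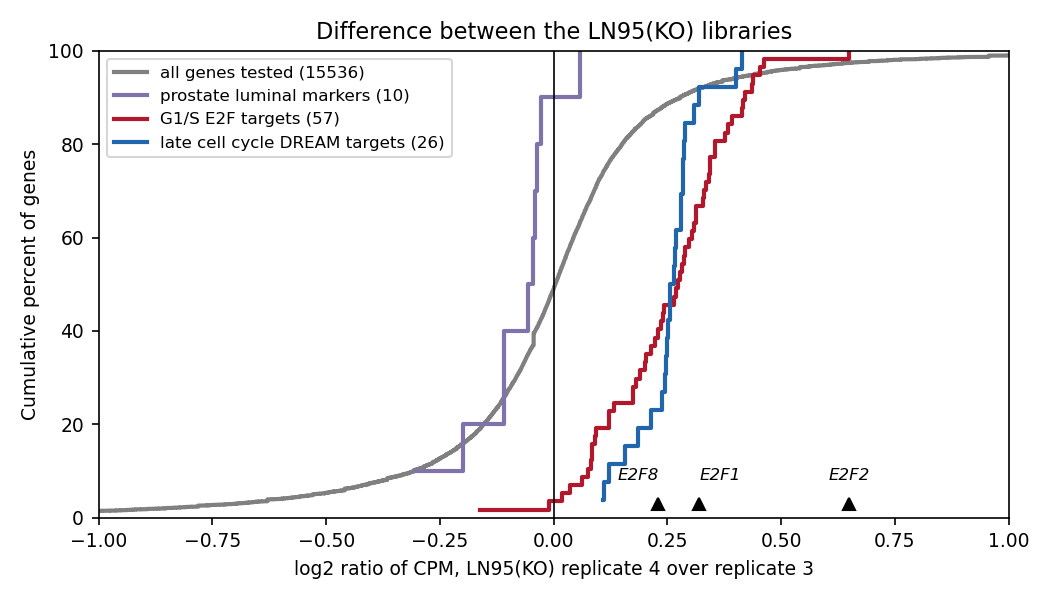
The cumulative curves show the log2 ratio of CPM of LN95(KO) replicate 4 over replicate 3 for all tested genes with reads in both libraries (grey, 15536 genes), prostate luminal markers, G1/S targets and late cell cycle targets, with triangles at E2F8, E2F1 and E2F2. The G1/S and late cell cycle curves lie to the right of the grey curve, with medians of 0.27 and 0.26 against 0.0034.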

How the data were processed

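RNA-Seq was measured in 4 libraries, 2 of LNCaP95 and 2 of LN95(KO), made from oligo(dT)-selected RNA and sequenced on the DNBseq platform. The deposited values were raw counts of reads per gene, which the authors obtained by alignment to hg19 with HISAT2 (2.1.0) and counting with HTSeq on GENCODE genes without use of strand, so that reads of overlapping genes were dropped as ambiguous or could not be separated by strand. The 5 summary lines of each file stayed out of library sizes and tests. They included reads without a feature (3.81% to 4.06% of entries), ambiguous reads (9.82% to 10.4%) and reads aligned more than once (3.78% to 3.86%). Groups came from the sample labels. A chi-square test of counts gave 2.44 per degree of freedom between the LNCaP95 replicates and 3.58 between those of LN95(KO). Both lie above the 1 that sampling noise gives, so all libraries were kept as separate. The test cannot tell separate cultures from separate preparations of the same RNA.

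Counts were compared by the edgeR (4.0.16, R 4.3.3) quasi-likelihood test with robust estimation, TMM factors, filterByExpr (minimum count 10, minimum total count 15) and no covariate, and p-values were adjusted by Benjamini-Hochberg over all 15626 genes tested. Genes were called at the thresholds of the study, an adjusted p under 0.05 with a fold over 2. A fold is LN95(KO) over LNCaP95. Log2 CPM used a prior count of 2. The test was checked on simulated data. Alternatives were DESeq2 (1.42.0), other scaling factors, no filter, glmTreat, no fold criterion, other gene lengths, a prior count of 0.5 and leaving out each library. Gene coordinates and exon lengths came from a later GENCODE release on GRCh37, promoter sequences from RefSeq on GRCh38.p14. The named genes were the members, UGT2B17, the DP partners and E2F6, the 2 largest rises and 2 largest falls with an adjusted p under 0.05 in each pathway list, and the 3 nearest genes of E2F1, E2F4 and RBL1. Some genes under this rule are not reported here. Other names were added after their values were seen. Members and lists were chosen with earlier results of these data known.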

Additional observations from a re-analysis of the deposited data

Results flagged for a closer look

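The share of reads that were not aligned lay outside the comparisons of gene counts and was higher in LN95(KO), at 7.707% in its lower library, than in LNCaP95, where the higher library had 3.958%. Its part in the changes of the E2F and pocket protein genes was not tested.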

How the results depend on the processing

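With 2 libraries in each group, small changes such as those of E2F4, RB1 and RBL2 were not resolved, and whether the values hold for other knockout clones cannot be told from these libraries. No paired analysis was made because the labels give no pairing between the libraries of the lines. E2F1, E2F2, E2F7 and E2F8 were called under every test, scaling and filter tried and without any 1 library, glmTreat included. E2F4 changed sign under upper quartile factors (-0.001218) and without LN95(KO) replicate 4, with a range of -0.003244 to 0.08465 over the fits that left out 1 library. E2F6 changed sign with library totals (0.01922) and without LN95(KO) replicate 3, with a range of -0.1215 to 0.0509. RBL1 passed the fold criterion with library totals (1.003). Counts depended most on the fold criterion. Against a 2-fold change glmTreat called 1687 genes in all and 1 CDK inhibitor. With no fold criterion the calls numbered 9349 over all genes, 7 members, 2 DP partners, 6 RB kinases and cyclins, 4 CDK inhibitors, 12 corepressors, 9 degradation and phosphatase genes, 8 coactivators and 6 apoptotic targets. DESeq2 called 2304 genes, 2254 of them also called by edgeR. The G1/S targets called numbered 33 to 41 with 1 library left out. Class shares moved with the gene length used. Raw counts with no length gave a difference between the lines of 23.659 percentage points for activators, -33.703 for repressors and 10.044 for atypical E2Fs, and the longest transcript gave 6.9343 for atypical E2Fs, where the values by exon length were 29.2, -35.9 and 6.74. The cause of these moves was not tested. Lengths limited to exon bases shared with no other gene, chosen after seeing the data, moved no class share beyond the spread between replicates.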
